A study of Caenorhabditis elegans with 44 samples.

Results

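The genes described are the vitellogenins vit-1, vit-2, vit-3, vit-4, vit-5 and vit-6 of Caenorhabditis elegans. They were found by matching these symbols to the gene identifiers of the deposited tables, and all 6 are listed at every time, out of 11430 identifiers listed in all. RNA was sequenced from whole young adults, grown for 51 h after synchronization and exposed on plates to auxin, or to ethanol as its solvent control, over 8, 16 or 24 h, with about 120 worms per condition. Both strains carry unc-119(ed3) on chromosome III and the transgene ieSi38, which makes the ubiquitin ligase adapter TIR1, fused to mRuby, from the promoter of the germline gene sun-1 with Cbr-unc-119(+) as its marker. The control strain, CA1199, carries nothing else and is called TIR1-only. The other strain, JTL621, also carries hsf-1::aid::gfp on chromosome I, so that auxin marks the heat shock factor HSF-1 for degradation where TIR1 is present, and is called HSF-1-AID. The labels place TIR1 in the germline, so the tagged HSF-1 of other tissues is not the stated target. Each strain and treatment has 4 libraries at 8 h, 4 at 16 h and 3 at 24 h, or 44 libraries in 12 groups. The title of every library holds the tag NHS, read here as no heat shock. Whether libraries of a group came from independent cultures is not given in the labels, and the p-values cover only how far these libraries differ, which may be technical.

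Vitellogenins are the yolk proteins of the worm. The adult hermaphrodite intestine transcribes their genes at a very high rate and secretes the proteins, loaded with lipid, into the body cavity. Oocytes take the yolk up through the receptor RME-2, and the embryo lives on it. The genes vit-1 to vit-5 encode the large yolk polypeptides, whereas the product of vit-6 is cleaved into smaller ones. The transcripts are thus intestinal, while the receptor for their products is made by germ cells as they become oocytes.

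Summed over the listed genes, the libraries held 12.5 to 50.7 M reads at 8 h, 31 to 57.7 M reads at 16 h and 13.3 to 24.4 M reads at 24 h. The 4 libraries numbered 4 at 8 h held 44.7 to 50.7 M reads, against at most 26.9 M reads in the others of that time. The transcript of hsf-1 itself was at 34.9 to 54.2 CPM (reads relative to the scaled size of the library, the deposited measure) over the 8 h libraries of HSF-1-AID and at 46.8 to 80.9 CPM over those at 24 h. Within HSF-1-AID it was higher on auxin than on ethanol at 16 h (log2 fold change 0.47, adjusted p = 1.24e-06, limma) and at 24 h (log2 fold change 0.53, adjusted p = 5.67e-04, limma). On ethanol at 16 h it was lower in HSF-1-AID than in TIR1-only (log2 fold change -0.41, adjusted p = 0.00203, limma), and on auxin the strains differed by 0.11 (adjusted p = 0.0792, limma). The degron acts on the protein, so this transcript does not check the depletion.

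On build WBcel235, 5 of the 6 genes lie on chromosome X and 1 lies on chromosome IV. The gene vit-1 (WBGene00006925) is at X:7727889-7733168 on the plus strand, and vit-2 (WBGene00006926) is at X:5101042-5106169 on the plus strand. The neighbours vit-4 (WBGene00006928, X:3558769-3563965) and vit-3 (WBGene00006927, X:3567355-3572549) are both on the minus strand with 3390 bases between them. The gene vit-5 (WBGene00006929, X:3403471-3408603, plus strand) lies 150 kb from vit-4, and vit-6 (WBGene00006930, IV:8261157-8266459, plus strand) is the member on chromosome IV. Their annotated exons add up to between 4870 and 5088 bases. The genes vit-1 and vit-2 are close copies of each other, as are vit-3, vit-4 and vit-5, and how the authors assigned reads shared by such copies is not stated, so the split between copies is uncertain. The opposite strand holds C42D8.9 at vit-2, T27A10.8 at vit-3 and F59D8.3 at vit-4. The kit is directional but the strand setting of the counting is not stated. C42D8.9 is listed in none of the 3 tables used, and the other two are listed at 16 h only, with medians of 2.74 CPM and 2.88 CPM.

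The vitellogenin transcripts were among the most abundant in the animal. Together the 6 genes held 3.47% to 7.44% of a library's reads in listed genes at 8 h, 5.83% to 9.50% at 16 h and 3.21% to 7.47% at 24 h. Ribosomal RNA held 1.26% to 31.4% of these reads at 8 h, 1.16% to 3.4% at 16 h and 3.78% to 18.3% at 24 h. Without it the 6 genes held 4.19% to 8.12%, 5.99% to 9.66% and 3.38% to 8.09%. Per kilobase of exon, vit-6 and vit-2 were highest, vit-5 came next, vit-3 and vit-4 followed at almost one level, and vit-1 was lowest. The median level of vit-6 was 3209 CPM per kb at 8 h, 4651 at 16 h and 3551 at 24 h, and that of vit-2 was 3211, 4444 and 3295 CPM per kb. For vit-5 the medians were 1888, 2916 and 2491 CPM per kb, and for vit-1 they were 973, 930 and 675 CPM per kb. Each time has its own table and scaling, so these levels stand side by side and were not tested between times. Among protein-coding genes ordered by level per kb, vit-6 had a median rank of 22 at 8 h, 7 at 16 h and 5 at 24 h, and vit-1 one of 135, 133 and 154.

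The order was nearly fixed from library to library. The level of vit-1 per kb was below that of every other member in all 44 libraries, and vit-5 was above vit-3 and vit-4 and below vit-2 in all of them. The neighbours that changed places were vit-6 and vit-2, where vit-6 was higher in 14 of 16 libraries at 8 h with ratios of 0.977 to 1.12 per kb, and vit-3 and vit-4, where vit-3 was higher in 10 of 16 with ratios of 0.977 to 1.04. The order within these pairs was thus not the same in every library at 8 h, and it was not tested. At 24 h vit-6 was above vit-2 in all 12 libraries, by 1.02 to 1.13 times.

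**Figure D1:**
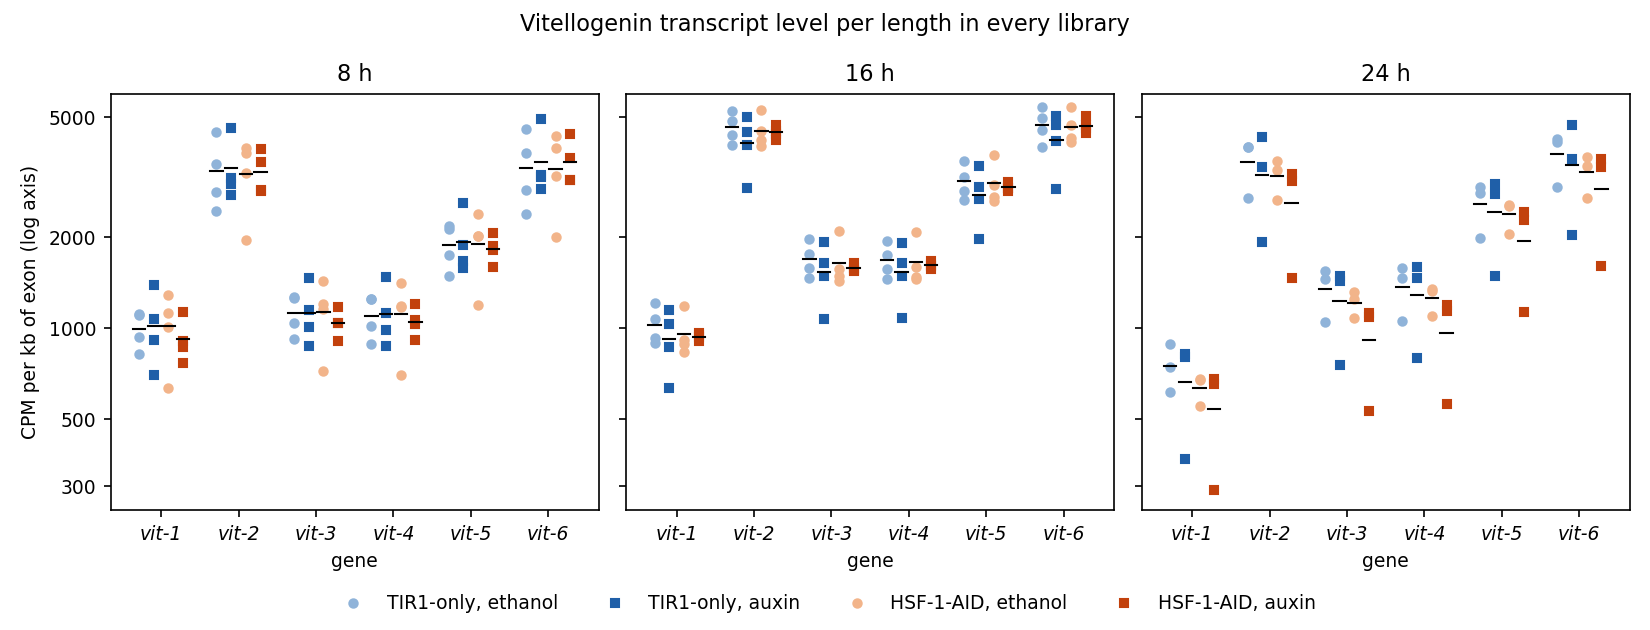
Level of each vitellogenin transcript in CPM per kb of exon (log axis) in every library, by time, strain and treatment; each mark is a library and each black line a group mean. The 4 groups overlap for every gene at every time, and at 24 h the lowest mark of each gene is HSF-1-AID auxin replicate 1.

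The 6 transcripts went up and down together between libraries of the same group. Within groups, the pooled standard deviation of the log2 level was 0.30 to 0.38 for the 6 genes at 8 h, 0.21 to 0.24 at 16 h and 0.44 to 0.50 at 24 h. The log2 ratio between 2 members varied far less, with a pooled standard deviation over the 15 pairs of 0.02 to 0.22 at 8 h, 0.01 to 0.07 at 16 h and 0.02 to 0.13 at 24 h. The smallest belonged to vit-3 and vit-4 at 8 h (0.0245) and 16 h (0.0121) and to vit-4 and vit-5 at 24 h (0.0163), and how far shared reads enter these ratios was not tested. The family's level moved more than that of most abundant genes. At 24 h each member's spread exceeded that of 90.3% to 95.6% of the genes above 1000 CPM, whose median spread was 0.187.

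The composition of the vitellogenin pool differed between the times. A gene's share of the reads of all 6 members is a ratio within a library, so the scaling of the tables does not enter it. The share of vit-1 was 6.86% to 9.62% at 8 h (median 8.68%), 5.76% to 6.41% at 16 h (median 6.05%) and 5.10% to 6.07% at 24 h (median 5.54%). The share of vit-5 was 14.4% to 16.5% at 8 h (median 15.9%), 17.0% to 18.6% at 16 h (median 17.9%) and 18.5% to 20.2% at 24 h (median 19.3%). So vit-1 held more of the pool at 8 h than in any library of the later times, and vit-5 held less, in both strains and under both treatments. The shares of the other 4 genes overlapped between 8 h and 24 h. The median of vit-6 was 29.7% at 8 h and 28.8% at 24 h, and that of vit-4 was 9.47% and 10.1%.

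At 8 h the deeper libraries numbered 4 stood apart from the others in the share of vit-2, at 28.7% to 30.1% against 26.1% to 28.1% in the libraries numbered 1 to 3. The shares of the other 5 genes overlapped between these sets of libraries. That of vit-1 was 6.86% to 7.86% in the libraries numbered 4 and 7.75% to 9.62% in the others, and that of vit-6 was 30.7% to 31.5% and 27.1% to 32.1%. The difference in vit-1 and vit-5 from the later times held on either side of this division. In the libraries numbered 4, vit-1 was still above and vit-5, at 14.4% to 15.3%, still below every library at 16 h and 24 h. The part of library preparation in the difference between times was not tested.

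**Figure D2:**
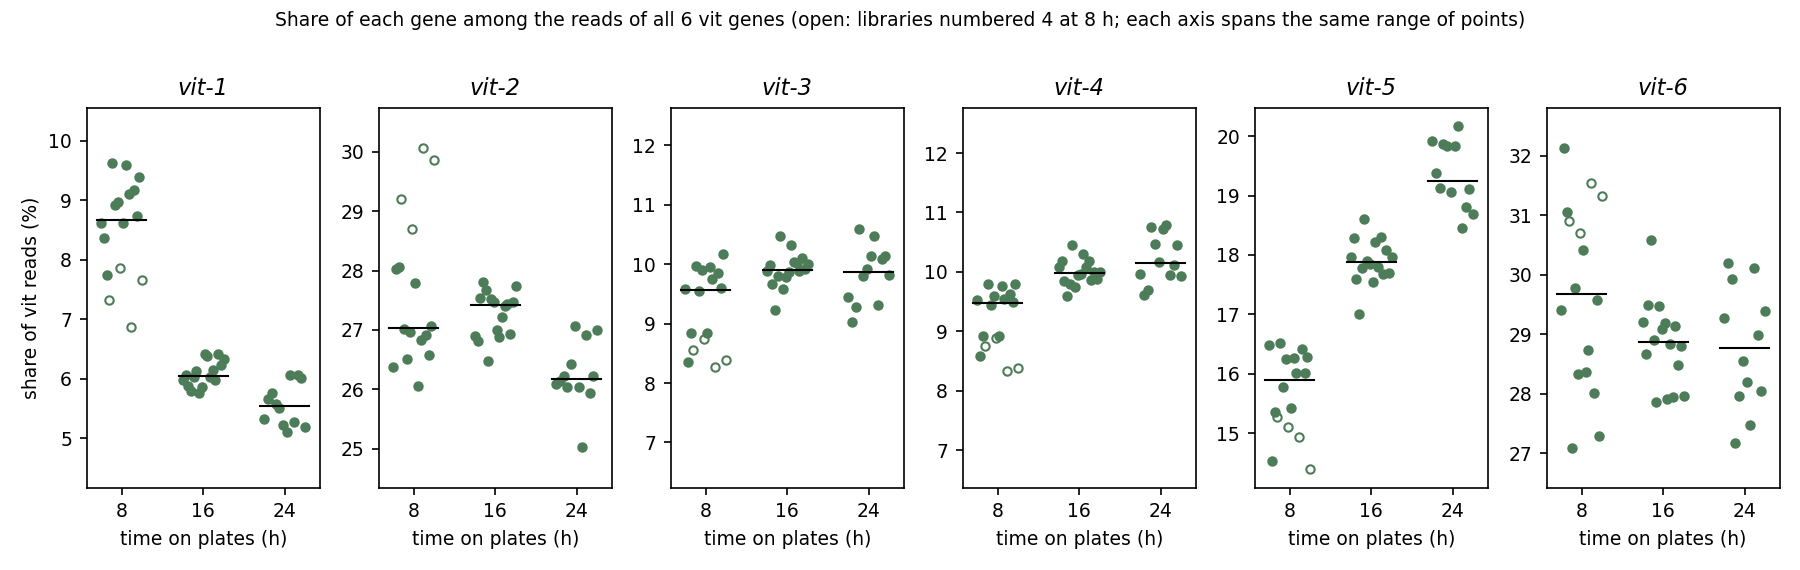
Share of each gene among the reads of all 6 vitellogenin genes (%) in every library at 8, 16 and 24 h on plates; lines are medians over all libraries of a time, and open marks are the 4 libraries numbered 4 at 8 h. The median share of vit-1 is 8.68% at 8 h and 5.54% at 24 h, and that of vit-5 is 15.9% and 19.3%.

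After 8 h, no vitellogenin transcript differed between auxin and ethanol beyond the spread between libraries, in either strain. In HSF-1-AID, vit-6 stood at 16157, 21947, 10185 and 20036 CPM on ethanol and at 15735, 22228, 15698 and 18535 CPM on auxin (replicates 1 to 4 in each). In TIR1-only, vit-6 stood at 14582, 19255, 12155 and 23107 CPM on ethanol and at 24933, 16104, 14658 and 16345 CPM on auxin. The groups overlapped in both strains. For HSF-1-AID auxin against ethanol, 0.283% of the 10971 tested genes were called (adjusted p under 0.05, limma with Benjamini-Hochberg adjustment over all tested genes) and 0 of 6 members were. Their log2 fold changes were -0.11 to 0.12, and the 95% intervals together ran from -0.61 to 0.73.

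The other comparisons at 8 h likewise called 0 of 6 members. Of all tested genes, 0.246% were called for TIR1-only auxin against ethanol, 0.00911% for the difference between the strains in the auxin effect, 0.00911% for the strains on ethanol and 0.0729% for the strains on auxin. No member reached an unadjusted p under 0.05 in any of these limma tests, nor in the same tests with the same settings and all libraries at the other times. With libraries weighted by how closely limma found them to follow the fit, 27.4% of all genes were called for the strains on auxin and 2.6% for HSF-1-AID auxin against ethanol, and still 0 of 6 members. The median log2 fold change of the members in HSF-1-AID auxin against ethanol was -0.03, beside -0.01 over all genes.

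After 16 h, when a large part of the transcriptome of depleted animals had changed, the vitellogenin transcripts on auxin lay among those on ethanol. In HSF-1-AID, vit-6 was at 21634, 27458, 23877 and 21026 CPM on ethanol and at 22539, 23268, 23835 and 25512 CPM on auxin. The lowest member, vit-1, was at 4508, 6034, 4667 and 4235 CPM on ethanol and at 4609, 4916, 4751 and 4831 CPM on auxin. The auxin values lay inside the range of the ethanol values for both genes. For HSF-1-AID auxin against ethanol, 42.2% of 10173 tested genes were called and 0 of 6 members were. Their log2 fold changes were -0.04 to 0.02 with adjusted p of 0.861 to 0.973 (limma), and the 95% intervals together reached from -0.41 to 0.45, or 0.750 to 1.37 times.

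The remaining comparisons at 16 h called 0 of 6 members as well. The share of all genes called was 0.147% for TIR1-only auxin against ethanol, 29.6% for the difference between the strains, 0.0295% for the strains on ethanol and 44.1% for the strains on auxin. In TIR1-only all 6 log2 fold changes on auxin were below 0, from -0.19 to -0.15 (adjusted p 0.695 to 0.747, limma). Auxin replicate 4 of that strain held the lowest family sum of the time, 52553 CPM, against 72114 to 98538 CPM in the other 15 libraries.

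After 24 h the vitellogenin transcripts of depleted animals were lower on average, by an amount that the spread between libraries covered. In HSF-1-AID, vit-3 was at 5348, 6138 and 6505 CPM on ethanol and at 2627, 5525 and 5381 CPM on auxin (replicates 1 to 3). In TIR1-only, vit-3 was at 5185, 7603 and 7168 CPM on ethanol and at 3723, 7048 and 7362 CPM on auxin. The groups overlapped in both strains, and replicate 1 was the lowest of every group. The log2 fold change of vit-3 in HSF-1-AID was -0.48 ± 0.313 (SE, n = 3; 95% interval -1.16 to 0.19; adjusted p = 0.249, limma), the largest of the 6. That of vit-6 was -0.26 ± 0.373 (SE, n = 3; 95% interval -1.07 to 0.54; adjusted p = 0.619, limma), the smallest.

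The other members showed the same layout of libraries. In HSF-1-AID, vit-6 was at 13715, 17492 and 18711 CPM on ethanol and at 8137, 18469 and 17346 CPM on auxin. The transcript of vit-2 was at 13141, 16536 and 17742 CPM on ethanol and at 7253, 15982 and 15197 CPM on auxin. In both, a single auxin library, replicate 1, was far below the rest, and the other two lay within the ethanol range. The transcript of vit-5 was at 10024, 12411 and 12491 CPM on ethanol and at 5536, 11846 and 11089 CPM on auxin. That of vit-4 was at 5425, 6554 and 6665 CPM on ethanol and at 2770, 5876 and 5618 CPM on auxin, and that of vit-1 was at 2814, 3448 and 3421 CPM on ethanol and at 1480, 3455 and 3333 CPM on auxin. Without HSF-1-AID auxin replicate 1, the log2 fold change of vit-3 was -0.13 (adjusted p = 0.751, limma) and that of vit-6 was 0.12 (adjusted p = 0.825, limma). Ethanol replicate 1, the lowest of its group, stayed in that fit, which raises these values. Between auxin and ethanol libraries numbered 2 and 3, the log2 difference was -0.15 and -0.27 for vit-3. It was 0.08 and -0.11 for vit-6.

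For HSF-1-AID auxin against ethanol at 24 h, 38.4% of 10411 tested genes were called and 0 of 6 members were. All 6 log2 fold changes were below 0, with a median of -0.37 beside -0.01 over all genes. In TIR1-only they were below 0 too, from -0.25 to -0.13 (0 of 6 called, beside 0.00961% of all genes). The auxin effect differed between the strains by -0.33 to -0.07 in log2 for the 6 genes (0 of 6 called, beside 24.1% of all genes), with 95% intervals that together ran from -1.29 to 1.06. Between the strains, 0 of 6 members were called on ethanol, beside 0.00961% of all genes, and 0 of 6 on auxin, beside 38.7% of all genes. In whole animals, fewer cells of a type and less RNA per cell cannot be told apart.

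The 24 h libraries with one replicate number varied together over all genes, so the number was also fitted as a block, which narrows the intervals. Under that fit 54% of all genes were called for HSF-1-AID auxin against ethanol and 2 of 6 members were, both lower, beside 28.1% of all genes called lower. The transcript of vit-3 fell by 0.48 on the log2 scale (95% interval -0.79 to -0.18, adjusted p = 0.00895, limma with the block) and that of vit-4 fell by 0.46 (95% interval -0.75 to -0.16, adjusted p = 0.0106, limma with the block). Auxin was lower than ethanol in 3 of 3 pairs for vit-3, by -1.03 to -0.15 in log2, and also in 3 of 3 for vit-2, vit-4 and vit-5. For vit-1 and vit-6 it was lower in 2 of 3. In TIR1-only auxin was lower in 2 of 3 pairs for every member. The genes vit-3 and vit-4 were also called lower between the strains on auxin, where 53.6% of all genes were called and 27.7% were called lower. The difference between the strains in the auxin effect called 0 of 6 members under the block too, beside 41.6% of all genes.

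The calls for auxin against ethanol rest on the libraries numbered 1. Those on auxin held the lowest family sums of the 24 h libraries, 27803 CPM in HSF-1-AID and 36752 CPM in TIR1-only, against 50466 to 79118 CPM in the other 24 h libraries. Without the 4 libraries numbered 1, the blocked log2 fold change of vit-3 in HSF-1-AID was -0.21 (adjusted p = 0.0653, limma). In that fit 0 of 6 members were called, beside 48.5% of all genes. It left 3 residual degrees of freedom, against 6 for the block with all libraries. Between the strains on auxin, the calls of vit-3 and vit-4 were instead lost without the libraries numbered 2 or those numbered 3 (adjusted p 0.0574 to 0.0669, limma with the block). Those fits called 43.9% and 46.1% of all genes. With the copies summed before the block fit, 0 were called as well. Beside this, 54% of all genes were called for HSF-1-AID auxin against ethanol and 53.6% for the strains on auxin. In the authors' deposited edgeR table for 24 h, vit-3 had a log2 fold change of -0.47, a p of 0.0403 and an FDR of 0.0761. That FDR was the lowest of the 6 members at 24 h, and the lowest was 0.912 at 8 h and 0.713 at 16 h. The headers of the authors' tables do not name the contrast.

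**Figure D3:**
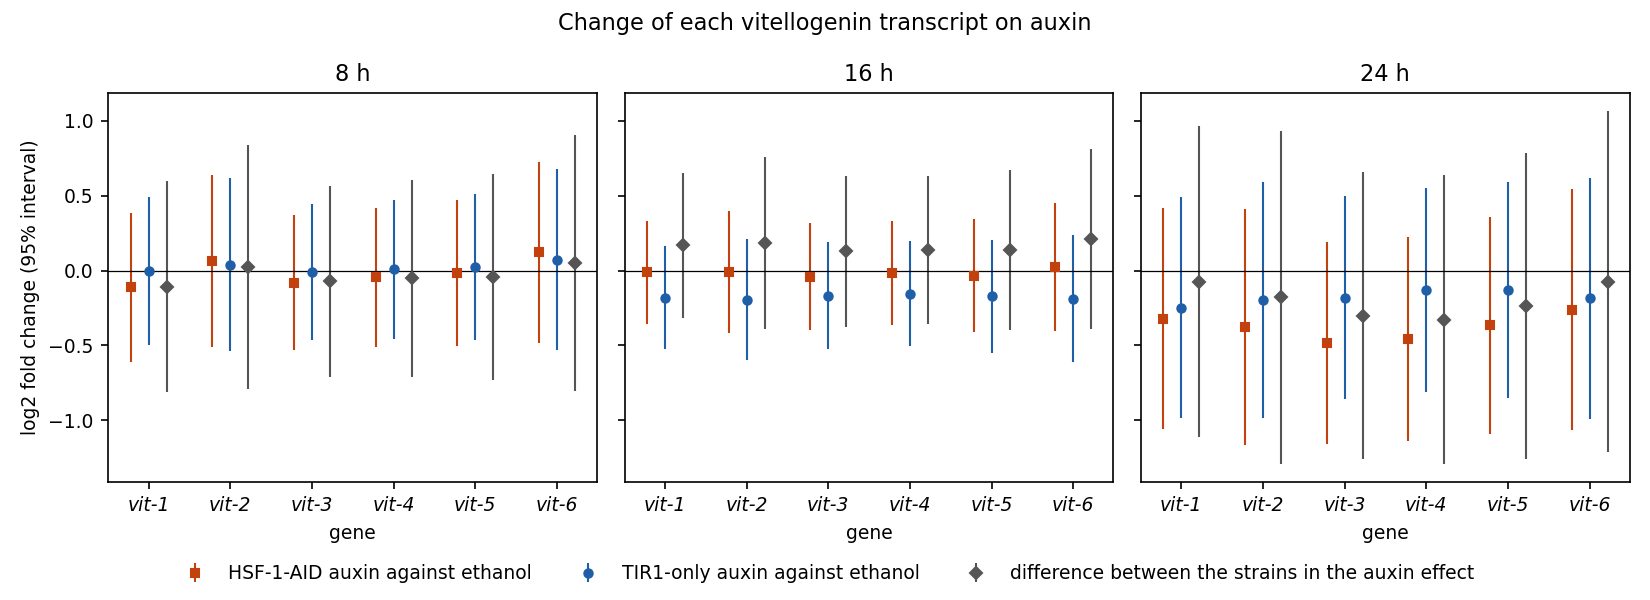
Log2 fold change of each vitellogenin transcript with its 95% interval (limma, no block), for auxin against ethanol in HSF-1-AID and in TIR1-only and for the difference between these effects, at 8, 16 and 24 h. Every interval includes 0, and at 24 h the values in HSF-1-AID run from -0.48 for vit-3 to -0.26 for vit-6.

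Within the pool of depleted animals at 24 h, the share of vit-6 was higher in every auxin library than in any ethanol library, and the shares of the neighbours vit-3 and vit-4 were lower. The share of vit-6 was 27.2%, 28.0% and 28.6% on ethanol and 29.3%, 30.2% and 29.9% on auxin. That of vit-3 was 10.6%, 9.81% and 9.93% on ethanol and 9.45%, 9.03% and 9.28% on auxin. The groups did not overlap for these genes or for vit-4, and they overlapped for the other 3 members. For vit-6 the mean share on auxin differed from that on ethanol by 1.90 points in HSF-1-AID and by -0.22 points in TIR1-only, where the groups overlapped. With 3 libraries against 3, an exact two-sided permutation test cannot give a p below 0.1, so these differences are a description. At 8 h the mean share of vit-6 in HSF-1-AID differed by 1.90 points as well, from 29.0% on ethanol to 30.9% on auxin, with overlapping groups, while it differed by 0.712 points in TIR1-only. Shares add up to a whole, so these movements are not independent of each other. No member's share separated auxin from ethanol in TIR1-only at 24 h or in either strain at 8 h or 16 h.

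The yolk receptor changed strongly in depleted animals. Its gene rme-2, a member of the LDL receptor family, was at 1380, 1931 and 1950 CPM on ethanol and at 341, 566 and 586 CPM on auxin in HSF-1-AID at 24 h. In TIR1-only it was at 1214, 2033 and 2165 CPM on ethanol and at 1232, 1866 and 1942 CPM on auxin. The depleted libraries lay below all others. The transcript fell by 1.84 on the log2 scale (SE 0.265, n = 3, adjusted p = 1.39e-04, limma), and the auxin effect differed between the strains by -1.75 (95% interval -2.56 to -0.94, adjusted p = 0.00465, limma). At 16 h rme-2 had fallen by 0.50 (adjusted p = 0.00276, limma), while at 8 h its log2 fold change was -0.14 (95% interval -0.46 to 0.18).

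Of the 16 genes on the list for yolk uptake, 5 fell and 1 rose in HSF-1-AID on auxin at 24 h, and the median of the list was -0.13 in log2 beside -0.01 over all genes. Of all genes, 18.2% rose and 20.2% fell in that comparison. The dynamin gene dyn-1, whose product pinches off endocytic vesicles, fell by 1.05 (adjusted p = 0.00266, limma), and rab-11.1, a GTPase of recycling endosomes, was the member that rose (log2 fold change 0.32, adjusted p = 0.0104, limma), a call lost without HSF-1-AID ethanol replicate 2 (adjusted p = 0.0521). With the block, 8 fell and 2 rose, beside 28.1% and 25.9% of all genes, and with equal library medians 3 fell and 2 rose. At 16 h, 6 of 16 rose and 2 fell, beside 22.3% and 19.8% of all genes. In TIR1-only 0 of 16 passed the test at either time. At 16 h 2 had an unadjusted p under 0.05, beside 6.37% of all genes, and at 24 h 0 had one, beside 2.45% (limma).

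Of 19 tested genes that load yolk with lipid or process it, 4 fell and 1 rose in HSF-1-AID at 24 h, beside 20.2% and 18.2% of all genes. With the block 10 fell and 4 rose, beside 28.1% and 25.9% of all genes, and with equal library medians 3 fell and 3 rose. The gene dsc-4, which encodes the microsomal triglyceride transfer protein, was at 40.9, 50.2 and 53.2 CPM on ethanol and at 22.4, 29.5 and 30.2 CPM on auxin, without overlap. It fell by 0.82 on the log2 scale (adjusted p = 0.00100, limma). The fatty acid desaturase gene fat-2 fell by 0.49 and the lipid-binding protein gene lbp-6 by 0.63 (adjusted p = 7.66e-04 and 7.58e-04, limma). The cathepsin L gene cpl-1, needed to process yolk, did not pass the test (log2 fold change -0.25, 95% interval -0.69 to 0.18).

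Of 24 tested regulators of vitellogenin genes, 6 fell and 2 rose in HSF-1-AID at 24 h, beside 20.2% and 18.2% of all genes, and the list had a median of -0.08 in log2. With the block 9 fell and 3 rose, beside 28.1% and 25.9% of all genes, and with equal library medians 4 fell and 4 rose. The homeobox gene unc-62, an activator of the vitellogenin genes in the intestine, was at 9.37, 9.05 and 12.7 CPM on ethanol and at 4.01, 4.17 and 5.31 CPM on auxin. It fell by 1.18 on the log2 scale (adjusted p = 4.06e-04, limma), and the auxin effect differed between the strains by -0.92 (adjusted p = 0.0287, limma). Its partner ceh-60 was at 0.669 to 0.854 CPM on ethanol and at 1.19 to 1.30 CPM on auxin, and did not pass the test (log2 fold change 0.64, 95% interval 0.03 to 1.25, adjusted p = 0.0925, limma). The zinc finger gene pqm-1 fell by 0.65 (adjusted p = 0.0257, limma), a call that 7 of 23 alternatives did not give. The TGF-beta receptor gene daf-4 fell by 1.09 and the nuclear receptor gene nhr-49 rose by 0.36 on the log2 scale (adjusted p = 5.14e-05 and 0.00203, limma). The GATA factor gene elt-2, which directs transcription in the intestine, gave a log2 fold change of -0.16 (95% interval -0.65 to 0.34).

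Other intestinal transcripts fell in depleted animals while the vitellogenins did not pass the test in the fit without a block. At 24 h their median log2 fold change in that fit was -0.37, with standard errors of 0.31 to 0.37. With the block, vit-3 and vit-4 were called lower, beside 28.1% of all genes. Of 23 tested intestine markers, 14 fell and 0 rose in HSF-1-AID at 24 h, beside 20.2% and 18.2% of all genes, and the list had a median of -0.55 in log2. The auxin effect differed between the strains for 5 of the 23, beside 24.1% of all genes, or for 16 with the block, beside 41.6% of all genes. Their summed level was 5718 to 7529 CPM on ethanol and 3602 to 5255 CPM on auxin in HSF-1-AID, and 5336 to 7679 CPM over both treatments in TIR1-only, with none of the listed markers at 0. The intestinal acid phosphatase gene pho-1 was at 45.9, 43.9 and 51.5 CPM on ethanol and at 23.7, 21.4 and 23.8 CPM on auxin, and fell by 1.03 on the log2 scale (adjusted p = 7.43e-06, limma). The cathepsin B-like protease gene cpr-3 fell by 1.65 and the sodium-proton exchanger gene nhx-2 by 0.62 (adjusted p = 1.35e-05 and 5.98e-04, limma). At 16 h, 14 of 23 markers had fallen, beside 19.8% of all genes, with a median of -0.27. The difference in response between the vitellogenins and these genes was not tested as such.

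**Figure D4:**
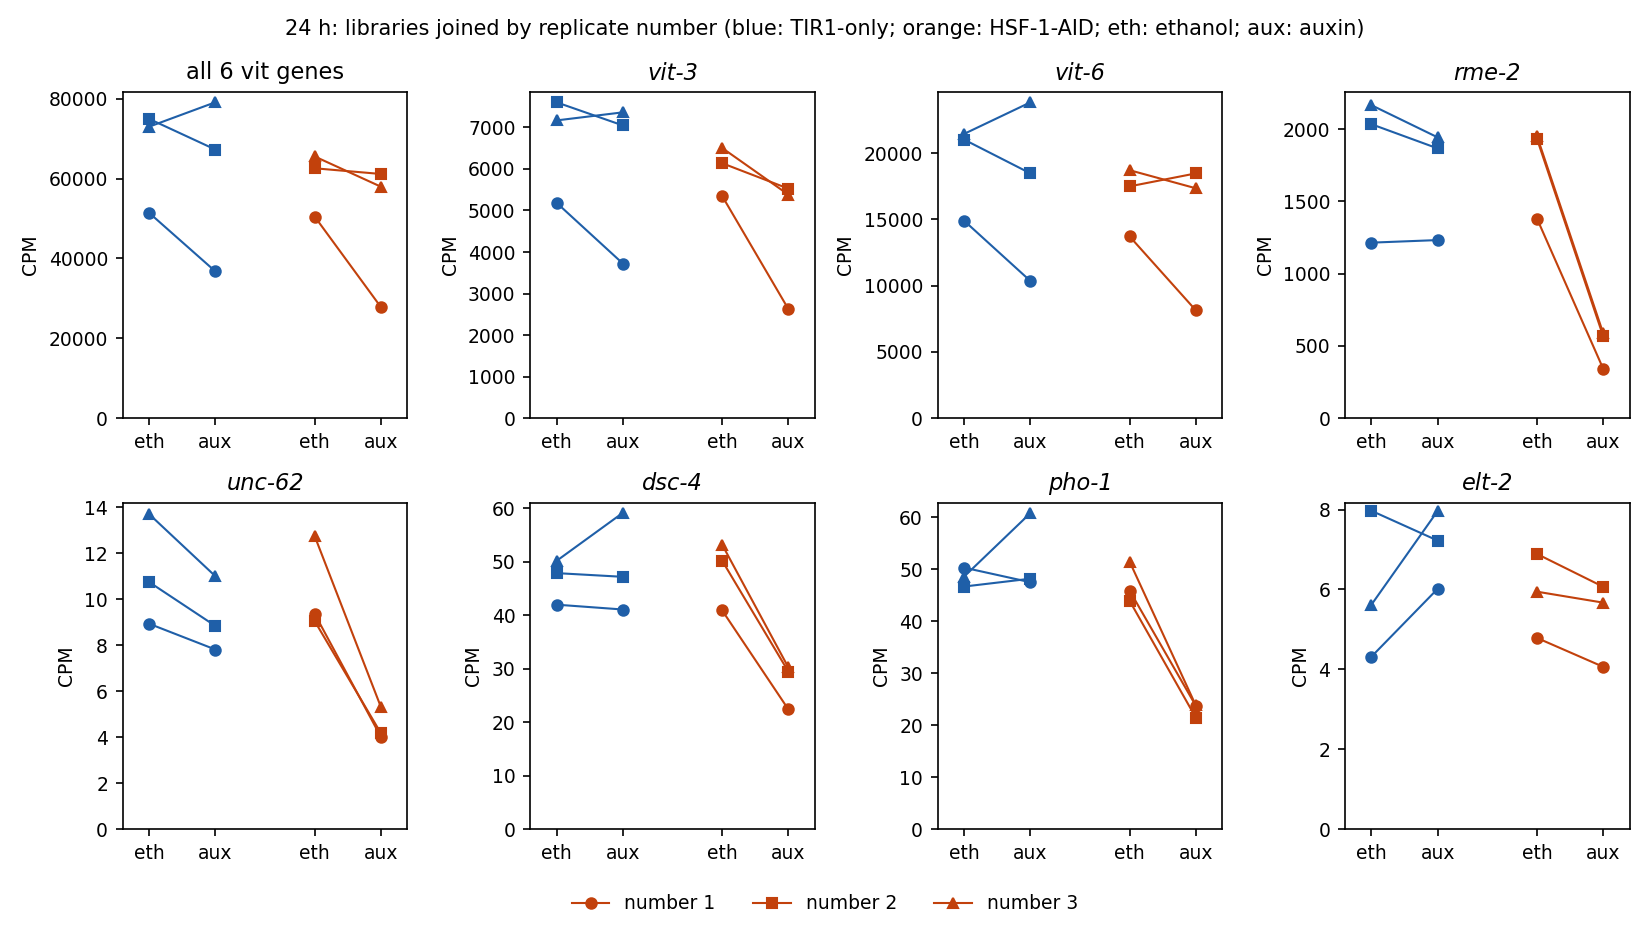
Levels (CPM, axes from 0) of all 6 vitellogenin genes summed, vit-3, vit-6 and 5 related genes in the 24 h libraries, with ethanol and auxin libraries of one strain joined by replicate number. The vitellogenin lines of HSF-1-AID overlap in level with those of TIR1-only, whereas rme-2 lies at 341 to 586 CPM in HSF-1-AID on auxin and at 1214 CPM or more in the 9 other libraries.

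Markers of other tissues were counted in the same comparison at 24 h, where 20.2% of all genes fell and 18.2% rose. Of 17 oocyte and eggshell genes, 14 fell, among them egg-1 (log2 fold change -1.92), egg-2 (-1.80) and the chitin synthase gene chs-1 (-1.27), and their summed level was 17238 to 20604 CPM on ethanol and 6877 to 9762 CPM on auxin. Of 16 germline markers, 6 fell, among them nos-2 (-1.98) and htp-1 (-0.69), and 2 rose, among them syp-1 (0.75). Of 5 tested embryo markers 3 fell, namely elt-1 (-2.44), tbx-9 (-1.86) and pal-1 (-0.65), while the other 10 of the list's 15 were not tested. Of 12 neuron markers 4 rose, among them unc-31 (1.59), ida-1 (0.75) and sbt-1 (0.65), though 5 of 23 alternatives did not call ida-1 and 1 did not call sbt-1. Of 7 hypodermis markers 1, nhr-23, fell (-0.43). Of 15 muscle markers 0 passed the test in limma, with 1 at an unadjusted p under 0.05, beside 46.8% of all genes. With the block 5 rose, beside 25.9% of all genes. With the block and without the libraries numbered 1, 11 rose, beside 24% of all genes. Sperm markers were tested at 8 h only, where 0 of 28 passed and 0 had an unadjusted p under 0.05. The part of these differences in the vitellogenin levels was not tested.

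In TIR1-only at 24 h, 0 genes of these lists passed the test in limma. The unadjusted p was under 0.05 for 2 genes of the lipid loading and processing list, 1 intestine marker and 1 neuron marker. Of all genes, 2.45% had an unadjusted p under 0.05 in that comparison. The libraries numbered 1 at 24 h were low for several lists besides the vitellogenins. Among the TIR1-only libraries the intestine markers summed to 5492 and 5336 CPM in those numbered 1, on ethanol and auxin, and to 6443 to 7679 CPM in the others. The oocyte and eggshell genes summed to 16148 and 16392 CPM in them, and to 19852 to 22713 CPM in the others.

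The genes whose level followed the family most closely over libraries were compared by Pearson's r between the log2 level of the gene and that of the summed family, taken over all libraries of a time and averaged over the 3 times. Among 9836 genes the median was -0.01, and 70 exceeded 0.8. The highest value belonged to sid-3, a tyrosine kinase gene on chromosome X needed for RNA import (0.90 at 8 h, 0.85 at 16 h and 0.96 at 24 h). It was followed by dao-5, a nucleolar protein gene (mean 0.86), pod-2, which encodes acetyl-CoA carboxylase (0.86), the coronin gene pod-1 (0.85), and atp-1, an ATP synthase subunit gene (0.85). The sodium pump gene eat-6 (0.85), the kinesin gene klp-7 (0.85) and the talin gene tln-1 (0.84) complete the 8 most similar. Members themselves had means of 0.95 for vit-1 to 0.99 for vit-2, which the sum contains. Libraries share their scaling and depth in these values, so they are a description over 16, 16 and 12 libraries. Without the 2 libraries farthest from the median, r for sid-3 was 0.85, 0.60 and 0.90. Of these 8 genes 0 were called in HSF-1-AID on auxin at 24 h, where the log2 fold changes ran from -0.70 for klp-7 (adjusted p = 0.0773, limma) to -0.04 for atp-1 (adjusted p = 0.884, limma), and sid-3 was at -0.55 (adjusted p = 0.179, limma).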

How the data were processed

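The data were 44 poly(A)-selected, directional RNA-seq libraries of whole young adult worms. The submitters' processing notes name WBcel235 and ce11 as builds and list edgeR, featureCounts and STAR as the authors' tools. Their versions, the strand setting of the counting, the annotation and the treatment of shared reads are not given in the sources used here. The authors deposited log2 CPM values, 1 table per time and scaled separately, so tests stay within a time. On the linear scale 100% of these values were whole reads within 0.05 read after a prior of 2 reads was removed, which gave the depth. The authors' deposited comparison tables hold a log2 fold change, a mean log2 CPM, an FDR, a p-value and a likelihood-ratio score for each gene.

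From these, a gene was tested if the number of libraries where it reached 1 CPM was no lower than the size of the smallest group. Tests were run with limma 3.58.1 in R 4.3.3 (moderated test with a mean-variance trend, two-sided) on the log2 values, with all 4 groups of a time in one model and Benjamini-Hochberg adjustment over all tested genes. A gene was called at an adjusted p under 0.05. Fold changes are therefore on the authors' log2 scale, which understates changes of low genes. The fits left 12 residual degrees of freedom for the earlier times and 8 for 24 h. The test was tried on simulated data with known changes. Gene models came from Ensembl release 115, which held 11425 of the 11430 identifiers. Levels per kb divide CPM by exonic length. Tables and figures used Python 3.11.15, pandas 2.3.3, numpy 2.4.6 and matplotlib 3.10.9.

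At 24 h the replicate numbers paired the libraries: the 18 correlations between deviations of same-numbered libraries from their group means were 0.18 to 0.53, so a fit with the number as a block was added. The genes and lists were chosen with earlier results of these data known. Named from the lists were rme-2, cpl-1, dsc-4, unc-62, ceh-60, pqm-1 and elt-2, plus, per list, up to 3 called genes with the smallest adjusted p at 24 h in HSF-1-AID. The genes most like the family were the 8 with the highest mean correlation. Alternatives covered the filter, trend, robust and library-weighted fits, scaling, offset, samples in the fit, block, summed copies and leaving out libraries.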

Additional observations from a re-analysis of the deposited data

Results flagged for a closer look

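The level of vit-6 in TIR1-only on auxin at 8 h was 24933 CPM in replicate 1, while the other 3 libraries of the group were at 14658 to 16345 CPM. The gap to the nearest library made up 0.836 of the group's range, above the critical value of Dixon's test at the 95% level for 4 samples. It was 1 of 56 gene and group combinations tested. Chance alone flags about 1 in 20 groups. The other members were also highest in that library, as the 6 genes vary together.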

How the results depend on the processing

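The 15 counts of called vitellogenin genes were recomputed 319 times under other settings, and 10 of these differed from 0, all at 24 h. For HSF-1-AID auxin against ethanol, the replicate block called 2 of 6, beside 54% of all genes. Of the settings added after seeing the data, the block with library totals taken without vit and rRNA genes called 4, beside 54.4% of all genes. With equal library medians the block called 2, beside 56.3%. It called 2 without the libraries numbered 2, beside 43.6%, and 3 without those numbered 3, beside 46.2%. For the strains on auxin, the block called 2, beside 53.6% of all genes. Leaving out the 4 libraries numbered 1 without a block also called 2. The share of all genes for that fit is not given here, and it was 38.7% with all libraries and no block. The block called 2 with library totals taken without vit and rRNA genes, beside 53.5%, and 1 with equal medians, beside 55.1%. Without the libraries numbered 1 the block called 4, beside 47.8%. Leaving out each library in turn gave 0 called in all 132 resulting counts. The block changed no count at 8 h or 16 h, where the numbers as a whole did not pair the libraries: deviations of same-numbered libraries correlated at -0.41 to 0.74 and at -0.31 to 0.71, and 13 and 9 of 24 were best with their own number. Only the libraries numbered 4 had 6 of 6 best with their own number, at both times (0.46 to 0.73 and 0.48 to 0.71). At 8 h pairing was partial for other numbers. The libraries numbered 2 other than HSF-1-AID auxin were best with their own number (0.47 to 0.74). So were those numbered 3 other than TIR1-only auxin (0.32 to 0.43). The cause of these differences was not tested. Over the alternatives for HSF-1-AID auxin against ethanol at 24 h, the number of genes that fell was 2 to 8 for yolk uptake, 3 to 10 for processing and lipid loading, 2 to 9 for regulators, 7 to 19 for intestine markers, 12 to 16 for oocyte genes and 5 to 11 for germline markers, and 1 to 8 neuron markers rose. The share of all genes called moved as well. Of all genes, 15.7% fell and 24.6% rose with equal library medians, while 28.1% fell and 25.9% rose with the block. Equal medians at 24 h moved the median of all genes by 0.11 in log2 and the higher share of calls from 47.3% to 61% in HSF-1-AID. Library totals without vit and rRNA genes moved it by -0.11 for the difference between the strains at 16 h, and the higher share of calls from 58.1% to 38.4%. Depth limits the vitellogenin values little, since the 6 genes hold at least 3.21% of the reads of every library, and the spread between libraries sets the intervals.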
